A study of Mus musculus with 24 samples.

Results

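Transcript levels of 10 genes of muscle protein breakdown and autophagy were followed in mouse heart. The genes were taken by name, as the rows of the count files whose Ensembl identifier maps to Fbxo32, Trim63, Fbxo30, Fbxo31, Bnip3, Map1lc3b, Sqstm1, Gabarapl1, Ulk1 or Ctsl. All 10 were found among the 52350 genes of each file, and all 10 passed the filter on low counts. The hearts came from 24 male wild-type C57Bl/6 mice aged 12 weeks and kept on 12 h of light and 12 h of darkness, and were read by poly-A-selected RNA sequencing. Mice of the ZT12-EX group ran on a treadmill at ZT12, the start of the active phase, and ZT12-SED mice were their sedentary controls. Mice of the ZT0-EX group ran at ZT0, the start of the rest phase, and ZT0-SED mice were sedentary at that time. ZT, or zeitgeber time, is the number of hours after the lights came on. The bout was a single run of 60 min at 10 m/min and 0% grade after habituation to the treadmill, and mice were handled under red light during the dark phase. Each group held 6 mice, which the labels name as separate biological replicates. How long after the run the hearts were taken is not stated in the labels.

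In striated muscle, protein is removed by the ubiquitin-proteasome system, in which ubiquitin ligases mark proteins for destruction, and by autophagy, in which a membrane closes around cytoplasm or organelles and delivers them to the lysosome. Genes induced together when muscle wastes are called atrogenes, and many are transcribed under FoxO factors, which insulin signalling through Akt keeps out of the nucleus. In the heart these pathways also turn over sarcomere proteins and mitochondria under normal load. In whole heart tissue, fewer cells of a type and less RNA per cell cannot be told apart.

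Library totals ran from 9697334 to 23067191 counts. Replicates 1 to 3 of every group were sequenced on flow cell 1 and replicates 4 to 6 on flow cell 2, so that each group had 3 libraries on each. Transcripts of the mitochondrial genome took 2.70% to 55.1% of counts, and the share was highest, at 40.7% to 55.1%, in ZT12-SED replicates 1 to 3. Fast skeletal muscle transcripts, 12 markers of which all 12 were measured, reached a mean log2 CPM of 5.64 to 7.51 in 6 libraries, all from flow cell 2, and at most 1.49 in the other 18. The 6 were ZT0-EX replicates 4 to 6 and replicate 6 of each other group. Replicates 1 and 2 of ZT12-SED and replicate 4 of ZT12-EX are called the 3 libraries that stood apart below. They were picked by name, and no numerical rule or distance is given for them. Mitochondrial transcripts took 53.4%, 55.1% and 2.70% of their counts. The 8 cardiomyocyte markers, among them Myh6 and Tnnt2, summed to at least 19470 CPM in every library. None of these 8 passed the threshold used below in any comparison reported here, with median log2 fold changes of 0.74 for exercise at ZT12, -0.22 for exercise at ZT0 and -0.60 for time of day in sedentary mice. Of the other cell types, 2 of 12 macrophage and 1 of 8 fibroblast markers were lower after exercise at ZT0, and 1 of 12 macrophage markers after exercise at ZT12. In sedentary mice at ZT12, 2 of 8 endothelial, 2 of 8 fibroblast, 1 of 8 smooth muscle and 1 of 12 macrophage markers were lower and 1 macrophage marker higher. In exercised mice at ZT12, 2 of 8 fibroblast markers were lower than at ZT0. The part of cell makeup in the results was not tested.

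Promoter sequences of 9 of the 10 genes, all but Fbxo32, were matched by symbol in a RefSeq table of the mouse GRCm38.p6 build, each running from 250 bases before to 50 bases after a gene's start. The FoxO motif GTAAACA was searched because FoxO factors transcribe atrogenes, and the E-box CACGTG because clock factors and the lysosomal regulator TFEB bind it. The 3 promoters that held either are shown, written 5′ to 3′ on the gene's own strand, with the motif in capitals.
Trim63, chr4:134314870-134315169, plus strand: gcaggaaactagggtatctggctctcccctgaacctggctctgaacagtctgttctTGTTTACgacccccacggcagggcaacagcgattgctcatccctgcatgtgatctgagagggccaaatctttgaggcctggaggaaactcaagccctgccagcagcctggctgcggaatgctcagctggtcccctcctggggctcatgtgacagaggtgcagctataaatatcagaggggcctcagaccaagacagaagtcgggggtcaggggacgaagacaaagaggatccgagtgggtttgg
Bnip3, chr7:138909457-138909756, minus strand: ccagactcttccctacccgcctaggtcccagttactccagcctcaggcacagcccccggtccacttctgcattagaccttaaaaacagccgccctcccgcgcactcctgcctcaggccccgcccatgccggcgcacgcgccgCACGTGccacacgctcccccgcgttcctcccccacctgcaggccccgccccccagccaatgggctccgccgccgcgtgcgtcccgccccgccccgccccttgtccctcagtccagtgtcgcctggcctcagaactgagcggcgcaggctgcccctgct
Ctsl, chr13:64370471-64370770, minus strand: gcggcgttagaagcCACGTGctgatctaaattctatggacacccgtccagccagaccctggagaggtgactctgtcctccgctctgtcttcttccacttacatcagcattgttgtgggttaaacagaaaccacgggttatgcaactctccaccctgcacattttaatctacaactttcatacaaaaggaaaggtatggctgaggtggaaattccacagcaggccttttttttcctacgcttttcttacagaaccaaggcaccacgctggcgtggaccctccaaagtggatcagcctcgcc
In Trim63 the FoxO motif lay on the opposite strand and began 194 bases before the start. The E-box began 108 bases before the start in Bnip3 and 236 bases before it in Ctsl. The FoxO motif occurred in 3.65% and the E-box in 7.15% of the 32851 promoters of that length. The cyclic AMP element TGACGTCA (1.79% of promoters) and the D-box TTATGTAA (0.938%) were found in 0 of the 9. The same held for the lysosomal CLEAR element, which contains the E-box (0.326%), and for the glucocorticoid (0.00913%), MEF2 (0.164%) and heat shock (0.603%) elements. The glucocorticoid element was searched as a strict string, which 3 of the 32851 promoters held. Directly before its FoxO motif, the Trim63 promoter matches that string in all but the first letter. The search therefore cannot tell whether Trim63 lacks such an element. Both strands were searched for every motif, and a match describes only these letters in this window. Bnip3 also held the GC box GGGCGG, which occurred in 35.7% of promoters and in 7 of the 9 here, and Trim63 held TATAAA 31 bases before its start (13.6% of promoters, 2 of the 9).

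Levels are given in CPM, a gene's counts relative to the total of its library scaled by the trimmed mean of M values, and per kilobase of annotated exon where genes are set against each other. Over all 24 libraries, Bnip3 had the highest level per kilobase, at 86.9 ± 50.8 CPM per kb (SD, n = 24). It encodes a receptor on the outer mitochondrial membrane that recruits the autophagy machinery to mitochondria. Sqstm1, which encodes an adaptor that ties ubiquitin-tagged cargo to the autophagosome, followed with 69.7 ± 23.6 CPM per kb. Trim63, a sarcomere-associated ubiquitin ligase also known as MuRF1, had 59.9 ± 22.8 CPM per kb, and Gabarapl1, which encodes a ubiquitin-like protein bound to autophagosome membranes, had 57.8 ± 11.8 CPM per kb. Neighbours among these 4 genes differed by less than the larger SD. Ctsl, the lysosomal protease cathepsin L, came next with 27.6 ± 3.90 CPM per kb, beside Map1lc3b, which encodes the autophagosome protein LC3B, with 25.0 ± 4.75 CPM per kb. The substrate receptors of cullin-based ubiquitin ligases stood lower, with 15.0 ± 6.67 CPM per kb for Fbxo32, known as atrogin-1, and 9.46 ± 5.99 CPM per kb for Fbxo31. Ulk1, the kinase that starts autophagosome formation, had 5.65 ± 2.53 CPM per kb, and Fbxo30, another F-box protein, had 4.76 ± 2.48 CPM per kb. The steps between Ctsl and Map1lc3b and from Fbxo32 down to Fbxo30 were again smaller than the larger SD of each pair. Those from Gabarapl1 to Ctsl and from Map1lc3b to Fbxo32 were larger. The lengths join the exons of all annotated transcripts of a gene, 6.49 kb for Ctsl and 2.01 kb for Gabarapl1, and the order depends on them. Without division by length, Ctsl averaged 179 CPM, above Gabarapl1 at 116 CPM, whereas Map1lc3b at 188 CPM stayed above Fbxo32 at 105 CPM. The lowest single count was 30, for Fbxo31 in a ZT12-SED library.

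**Figure D1:**
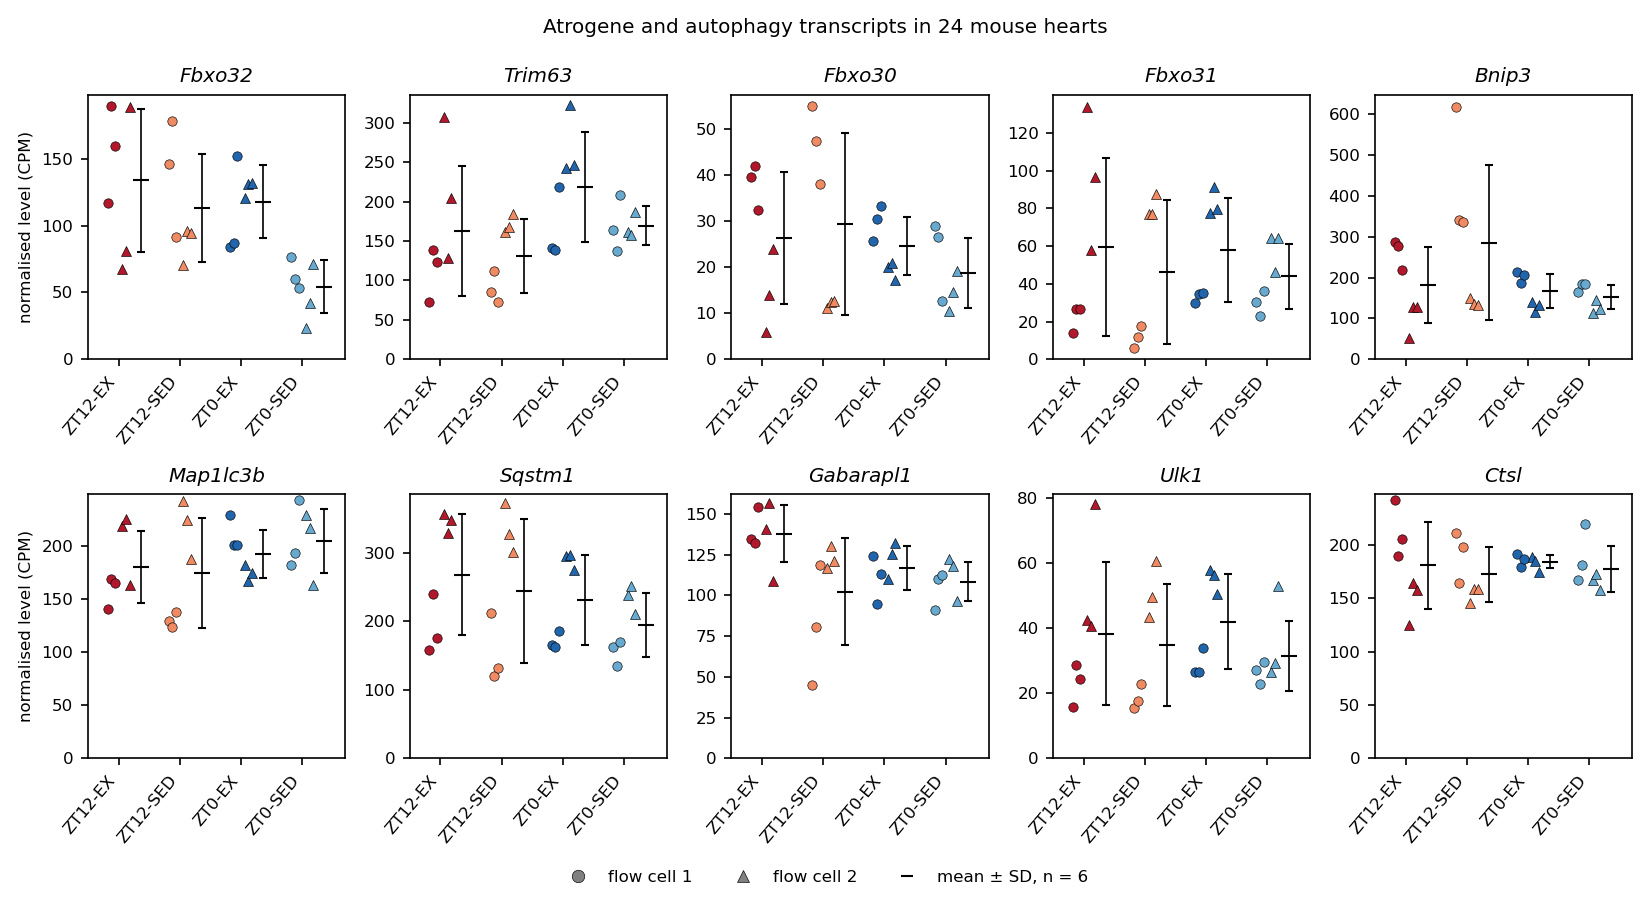
Normalised level of each gene in CPM (vertical axes, starting at 0) in the 4 groups, with flow cell 1 as circles, flow cell 2 as triangles, and mean ± SD of 6 mice as black bars. Fbxo32 lay between 83.8 and 152 CPM in ZT0-EX hearts, above all ZT0-SED hearts (23.2 to 76.5 CPM), and Fbxo31 and Bnip3 separated by flow cell within every group.

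The first comparison asked how exercise at the start of the rest phase changed these transcripts. Fbxo32 (ENSMUSG00000022358, chromosome 15) rose 2.23-fold and was the only one of the 10 genes past the threshold. Its level was lowest at 83.8, median 126 and highest at 152 CPM in ZT0-EX hearts, against 23.2, 56.7 and 76.5 CPM in ZT0-SED hearts. Every exercised heart lay above every sedentary one, on each flow cell and over both. The log2 fold change was 1.16 ± 0.28 (SE, n = 6 per group; adjusted p = 0.0389). Adjusted p-values come from edgeR's quasi-likelihood F test, corrected by Benjamini-Hochberg over all 15294 genes tested, with 0.05 as the threshold. By this rule 1.08% of all genes passed in this comparison, 0.791% higher and 0.288% lower, and 1.60% of all genes had groups that did not overlap. Of the 10 genes, 1 rose, 0 fell and 9 did not pass. Their median log2 fold change was 0.26, beside -0.01 over all genes.

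The Fbxo32 difference was larger in mean on flow cell 2 than on flow cell 1, which was not tested, and the call depended on the libraries kept. The difference of mean log2 CPM was 0.72 on flow cell 1, where fast skeletal muscle markers summed to 70.8 to 118 CPM in ZT0-EX and 71.5 to 90.5 CPM in ZT0-SED hearts. It was 1.64 on flow cell 2, where those markers summed to 998 to 3350 CPM in ZT0-EX and 112 to 830 CPM in ZT0-SED hearts. The marker genes Myh4 and Myh1 were at 0 counts in 5 and 10 of the 24 libraries, and 0 of the 12 markers passed the threshold in this comparison (median log2 fold change 1.68). Without the 6 libraries rich in these transcripts, the log2 fold change of Fbxo32 was 0.78 with an adjusted p of 0.540. That fit kept only ZT0-EX replicates 1 to 3, all from flow cell 1, and 0.327% of all genes passed in it. The share of all genes whose groups did not overlap was 21.0% within flow cell 1 and 19.5% within flow cell 2. The part of skeletal muscle transcripts in the flow cell 2 values was not tested. The adjusted p was 0.0931 with libraries scaled by their totals and 0.155 without a flow cell term. The call was also lost without any 1 of ZT0-EX replicates 3 to 6 or ZT0-SED replicates 2 to 5, with log2 fold changes of 1.00 to 1.16 and adjusted p-values of 0.0819 to 0.119.

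The other ubiquitin ligase genes did not pass the threshold after exercise at ZT0. Trim63 (ENSMUSG00000028834, chromosome 4) was lowest at 138, median 231 and highest at 323 CPM in ZT0-EX hearts, against 138, 163 and 209 CPM in ZT0-SED hearts, a log2 fold change of 0.29 ± 0.23 (adjusted p = 0.617). On flow cell 1 its groups overlapped and the difference was -0.05, whereas on flow cell 2 all 3 exercised hearts lay above the sedentary ones, by 0.68 in mean log2 CPM. The fitted log2 fold change was 0.21 without the libraries rich in skeletal muscle transcripts. Fbxo30 (ENSMUSG00000047648, chromosome 10) had a log2 fold change of 0.39 ± 0.28 (adjusted p = 0.594) and Fbxo31 (ENSMUSG00000052934, chromosome 8), whose product targets cell cycle proteins, one of 0.30 ± 0.29 (adjusted p = 0.676).

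The 6 autophagy and lysosome genes stayed within a narrow range at ZT0, with log2 fold changes between -0.08 for Map1lc3b and 0.34 for Ulk1 and adjusted p-values of 0.567 to 0.870. Ulk1 (ENSMUSG00000029512, chromosome 5) was lowest at 26.5, median 42.2 and highest at 57.9 CPM in ZT0-EX hearts, against 23.0, 28.2 and 52.9 CPM in ZT0-SED hearts. The highest sedentary value belonged to replicate 6, which is among the libraries rich in skeletal muscle transcripts. Ctsl (ENSMUSG00000021477, chromosome 13) spread least, from 175 to 192 CPM in ZT0-EX hearts within 158 to 220 CPM in ZT0-SED hearts. The differences had the same sign on both flow cells for 7 of the 10 genes.

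**Figure D2:**
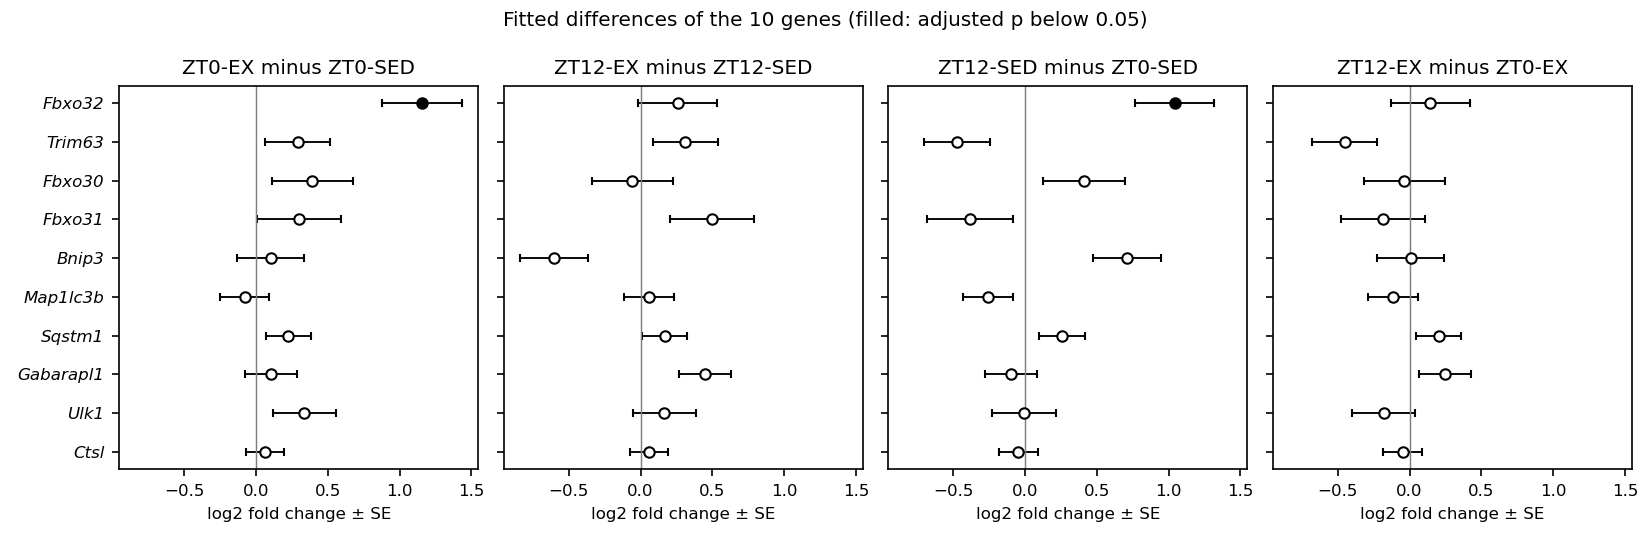
Fitted log2 fold change ± SE (horizontal axes) of the 10 genes in the 4 pairwise comparisons, each named above its panel, with filled points for adjusted p below 0.05. Only Fbxo32 is filled, at 1.16 for exercise at ZT0 and 1.04 for time of day in sedentary mice, while for exercise at ZT12 Bnip3 lies at -0.60 and Gabarapl1 at 0.45, both open.

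Exercise at the start of the active phase moved none of the 10 genes past the threshold, where 0.294% of all genes passed, 0.190% higher and 0.105% lower. Bnip3 and Gabarapl1 were the members below an unadjusted p of 0.05, a level that 16.4% of all genes reached, and DESeq2 called 0 of the 10 as well. Bnip3 (ENSMUSG00000078566, chromosome 7) was lowest at 51.0, median 174 and highest at 287 CPM in ZT12-EX hearts, against 132, 243 and 619 CPM in ZT12-SED hearts. Exercised hearts lay below sedentary ones on each flow cell separately, by 0.68 in mean log2 CPM among replicates 1 to 3 and 0.55 among replicates 4 to 6, yet the 6 and 6 overlapped. The log2 fold change was -0.60 ± 0.24 (adjusted p = 0.251). Groups did not overlap for 23.0% of all genes on flow cell 1, 6.60% on flow cell 2 and 0.262% over both. The extremes were libraries that stood apart, ZT12-SED replicate 1 at 619 CPM and ZT12-EX replicate 4 at 51.0 CPM.

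Gabarapl1 (ENSMUSG00000030161, chromosome 6) ran the other way at ZT12. It was lowest at 109, median 138 and highest at 157 CPM in ZT12-EX hearts, against 45.3, 118 and 131 CPM in ZT12-SED hearts. Of the exercised hearts, 5 of 6 lay above every sedentary heart, and the log2 fold change was 0.45 ± 0.18 (adjusted p = 0.259). The difference was 0.89 within flow cell 1 and 0.13 within flow cell 2, and the lowest sedentary values, 45.3 and 80.3 CPM, belonged to ZT12-SED replicates 1 and 2, which stood apart. Fbxo31 had a log2 fold change of 0.50 ± 0.29 (adjusted p = 0.377) and Trim63 one of 0.31 ± 0.23 (adjusted p = 0.457). Without the 3 libraries that stood apart the values at ZT12 were -0.10 for Bnip3, 0.20 for Gabarapl1, -0.10 for Fbxo31 and 0.07 for Trim63. With a GC correction they were -0.31, 0.27, 0.14 and 0.08 in the same order.

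Fbxo32 at ZT12 was lowest at 67.5, median 138 and highest at 189 CPM in ZT12-EX hearts, against 70.9, 95.5 and 178 CPM in ZT12-SED hearts. The groups overlapped on both flow cells, and the log2 fold change was 0.26 ± 0.28 (adjusted p = 0.616). Each of these groups held at least 1 heart above the highest of the ZT0-EX group. Fbxo30, Map1lc3b (ENSMUSG00000031812, chromosome 8), Sqstm1 (ENSMUSG00000015837, chromosome 11), Ulk1 and Ctsl had log2 fold changes of -0.06 to 0.17 with adjusted p-values of 0.565 to 0.926. The median of the 10 genes was 0.17, beside 0.06 over all genes.

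Whether exercise acted differently at the 2 times was tested as the difference of both effects, ZT12 minus ZT0. None of the 10 genes passed, and none of all 15294 genes did, with a smallest adjusted p of 0.125. At an unadjusted p of 0.05, 8.02% of all genes and 2 of the 10 lay below, and DESeq2 called 5 genes, 0 of them among the 10. For Fbxo32 the effect was 0.26 at ZT12 and 1.16 at ZT0, a difference of -0.90 ± 0.39 (adjusted p = 0.571), and the 2 flow cells gave -0.53 and -1.41. For Bnip3 the effect was -0.60 at ZT12 and 0.10 at ZT0, a difference of -0.71 ± 0.33 (adjusted p = 0.571), with -0.87 within flow cell 1 and -0.59 within flow cell 2. The rise of Fbxo32 at ZT0 is thus not shown to differ from its effect at ZT12. The other 8 genes had differences of -0.45 to 0.35 with adjusted p-values of 0.600 to 0.995.

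Time of day was compared in sedentary mice next, at the start of the active phase against the start of the rest phase. Fbxo32 was 2.06-fold higher at ZT12 and was again the only one of the 10 past the threshold, where 5.20% of all genes passed, 2.46% higher and 2.74% lower. Its values in ZT12-SED hearts, 70.9 to 178 CPM, lay above all ZT0-SED hearts (23.2 to 76.5 CPM) in 5 of 6 cases. The log2 fold change was 1.04 ± 0.28 (adjusted p = 0.0329), and the difference of mean log2 CPM was 1.09 among replicates 1 to 3 and 1.07 among replicates 4 to 6. This comparison shares the ZT0-SED hearts with that of exercise at ZT0, so the 2 values are not independent. The adjusted p was 0.0664 to 0.105 without any 1 of ZT12-SED replicates 1 and 2 or ZT0-SED replicates 2 to 4, with log2 fold changes of 0.90 to 1.04. Without the 3 libraries that stood apart the log2 fold change was 0.74 (adjusted p = 0.158), where 2.79% of all genes passed. Without the libraries rich in skeletal muscle transcripts it was 1.23 (adjusted p = 0.00755), where 20.1% of all genes passed. With a GC correction per library it was 0.84 (adjusted p = 0.0673), where 3.44% passed.

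Bnip3 had the next largest log2 fold change in the fit, 0.71 ± 0.24 (adjusted p = 0.0685). Its lowest, median and highest levels were 132, 243 and 619 CPM in ZT12-SED hearts and 114, 155 and 185 CPM in ZT0-SED hearts. All 3 ZT12-SED hearts of flow cell 1 lay above every ZT0-SED heart, whereas those of flow cell 2 lay within the ZT0-SED range. The difference was 1.23 within flow cell 1 and 0.13 within flow cell 2. Leaving out ZT12-EX replicate 4, ZT0-SED replicate 5 or ZT0-SED replicate 6 put Bnip3 past the threshold, with log2 fold changes of 0.73 to 0.81 and adjusted p-values of 0.0183 to 0.0486, in fits where 21.2%, 6.55% and 18.2% of all genes passed. DESeq2 called it too (adjusted p = 0.0223), along with 19.1% of all genes. With a GC correction per library Bnip3 was at 0.27 (adjusted p = 0.303), and without the 3 libraries that stood apart at 0.41 (adjusted p = 0.139).

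The other 8 genes had log2 fold changes of -0.47 for Trim63 (adjusted p = 0.149) and -0.38 to 0.41 for the rest, with adjusted p-values of 0.246 to 0.986. The median of the 10 was -0.03, beside -0.01 over all genes, and 3 of the 10 reached an unadjusted p of 0.05 against 33% of all genes. Those 8 genes changed sign between flow cells, so that 2 of the 10, Fbxo32 and Bnip3, had the same sign on both. Fbxo31 was lowest at 5.75 and highest at 17.5 CPM in the ZT12-SED hearts of flow cell 1, against 23.0 and 36.2 CPM in ZT0-SED hearts there. On flow cell 2 it ran from 77.0 to 87.6 CPM in ZT12-SED and from 46.3 to 64.1 CPM in ZT0-SED hearts. The groups did not overlap on either flow cell, in opposite directions (-1.45 and 0.48 in mean log2 CPM). Trim63 was lower at ZT12 by 0.92 within flow cell 1 and differed by 0.03 within flow cell 2, and Fbxo30 differed by 1.11 within flow cell 1 and -0.25 within flow cell 2. In all, 7 of the 10 genes had groups that did not overlap on flow cell 1, where this held for 53.6% of all genes, and 2 on flow cell 2 (13.0% of all genes). Over both flow cells 0 of the 10 did, against 1.70% of all genes. Fitted alone, flow cell 1 gave 6 of the 10 genes past the threshold among 43.5% of all genes, and flow cell 2 gave 0 among 0.231%. Mitochondrial transcripts took 40.7% to 55.1% of counts in ZT12-SED replicates 1 to 3 and 25.5% to 34.2% in ZT0-SED replicates 1 to 3, and their part in these values was not tested.

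**Figure D3:**
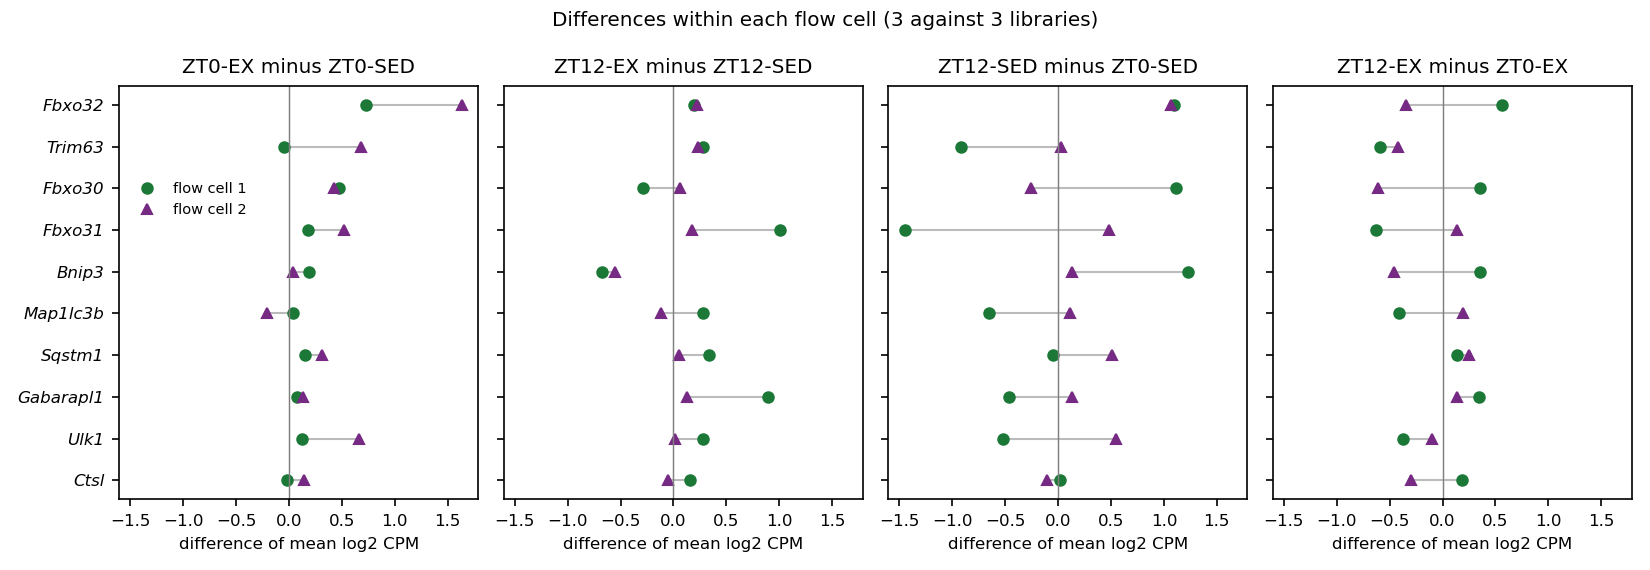
Difference of mean log2 CPM (horizontal axes) for each gene within flow cell 1 (circles) and flow cell 2 (triangles), 3 hearts against 3, in the 4 pairwise comparisons. In sedentary mice Fbxo32 differs by 1.09 and 1.07 at ZT12 against ZT0, whereas Fbxo31 differs by -1.45 within flow cell 1 and 0.48 within flow cell 2.

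In exercised mice none of the 10 genes differed by time of day past the threshold, where 1.65% of all genes passed, 0.811% higher and 0.837% lower, and 0 of the 10 reached an unadjusted p of 0.05 against 14.3% of all genes. DESeq2 also called 0. Trim63 came nearest, with its lowest, median and highest levels at 72.8, 133 and 307 CPM in ZT12-EX hearts and 138, 231 and 323 CPM in ZT0-EX hearts, a log2 fold change of -0.45 ± 0.23 (adjusted p = 0.367). It was lower at ZT12 on both flow cells, by 0.59 and 0.42, with overlapping groups on each. Fbxo32 had a log2 fold change of 0.14 ± 0.28 (adjusted p = 0.865), with 0.56 within flow cell 1 and -0.34 within flow cell 2. The other 8 genes had log2 fold changes of -0.18 to 0.25 with adjusted p-values of 0.548 to 0.993, and the median of the 10 was -0.04, beside 0.02 over all genes. Of the 10 genes, 0 had groups that did not overlap over both flow cells, against 1.10% of all genes. Within flow cell 1 the groups of 4 genes did not overlap (41.9% of all genes), and within flow cell 2 those of 2 genes (10.9%). The ZT12-EX and ZT0-EX hearts also enter the comparisons of exercise with rest.

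Several of these genes split by flow cell. Fbxo31 averaged 79.4 ± 22.4 CPM on flow cell 2 and 24.3 ± 10.0 CPM on flow cell 1 (SD, n = 12 each), and Bnip3 averaged 125 ± 25.7 CPM on flow cell 2 and 268 ± 126 CPM on flow cell 1. For both, the 12 libraries of one flow cell did not overlap with the 12 of the other, which held for 8.79% of all genes. Ordered by the GC content of their longest annotated transcript, the 4 genes at 38.2% to 45.8% GC (Fbxo30, Bnip3, Ctsl and Fbxo32) were lower on flow cell 2, by 0.26 to 1.17 in mean log2 CPM. The 6 genes at 51.5% to 58.9% GC (Map1lc3b, Trim63, Gabarapl1, Sqstm1, Ulk1 and Fbxo31) were higher there, by 0.20 to 1.81. Across all genes, those wholly higher on flow cell 2 had a median GC content of 57.9% and those wholly lower one of 42.0%, beside 49.6% over all genes. The difference for Fbxo31 was 2.07 in ZT12-EX and 2.90 in ZT12-SED hearts, and 1.31 in ZT0-EX and 0.97 in ZT0-SED hearts. With a GC correction per library, Fbxo32 at ZT12 against ZT0 in sedentary mice had a log2 fold change of 0.84 (adjusted p = 0.0673), and Sqstm1 one of 0.71 (adjusted p = 0.0334), where 3.44% of all genes passed.

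**Figure D4:**
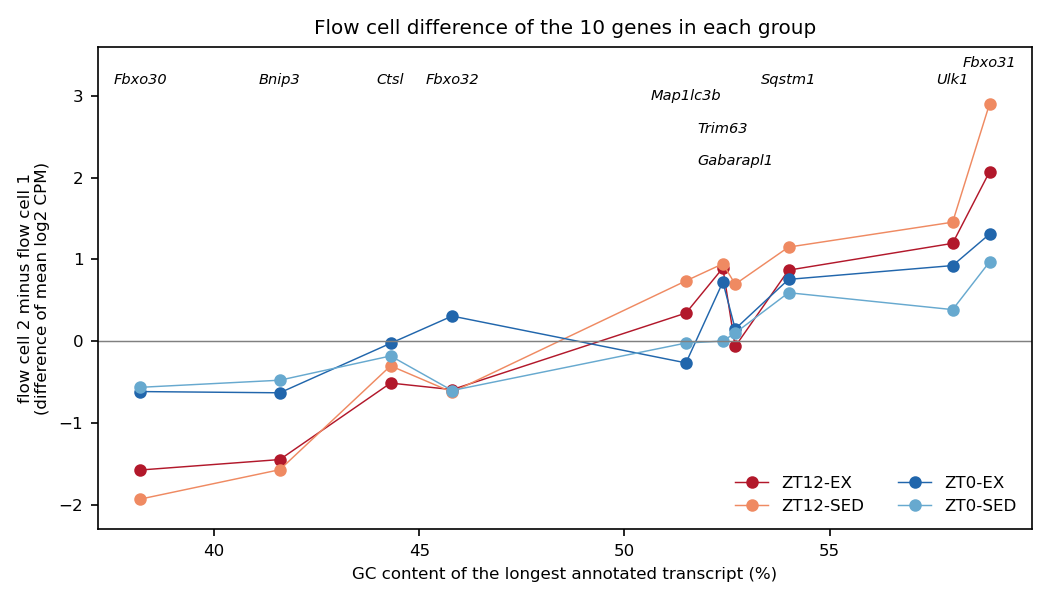
Flow cell 2 minus flow cell 1 in mean log2 CPM (vertical axis) of each gene against the GC content of its longest annotated transcript in percent (horizontal axis), with a line for each group. The 10 points of a group share their 6 libraries. Fbxo30 at 38.2% GC lies lowest, at -1.93 in ZT12-SED hearts, and Fbxo31 at 58.9% GC highest, at 2.90 in the same group.

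The wider pathway was described with 5 lists of 128 genes, of which 126 could be tested. The lists were chosen with earlier results of these data known, so a share above that of all genes is no independent support. After exercise at ZT0, 4 of the 126 rose and 0 fell (3.17%, against 1.08% of all genes). All 4 belonged to the list of upstream regulators (4 of 32 tested, median log2 fold change 0.43), which act on FoxO, mTOR and insulin signalling. Irs2, an adaptor of the insulin receptor, had its lowest, median and highest levels at 12.5, 23.9 and 40.1 CPM in ZT0-EX hearts and 2.12, 3.25 and 4.20 CPM in ZT0-SED hearts, a log2 fold change of 2.99 ± 0.39 (adjusted p = 0.000107). Ddit4, a stress-induced inhibitor of mTORC1, had 67.3, 114 and 166 CPM in ZT0-EX hearts and 21.2, 26.3 and 35.4 CPM in ZT0-SED hearts (2.07 ± 0.29, adjusted p = 0.000131). Depp1, a FoxO target, rose by 2.06 ± 0.33 (adjusted p = 0.00092) and Klf15, a glucocorticoid-induced transcription factor, by 1.40 ± 0.21 (adjusted p = 0.000317). For all 4 genes, every ZT0-EX heart lay above every ZT0-SED heart, in a comparison where the groups of 1.60% of all genes did not overlap. Without the libraries rich in skeletal muscle transcripts the log2 fold changes were 2.90, 2.25, 2.34 and 1.54, each past the threshold. Klf15 did not pass without a flow cell term (adjusted p = 0.0849) or on flow cell 1 alone (adjusted p = 0.0611), and on flow cell 2 alone, where 0.0857% of all genes passed, Klf15, Depp1 and Irs2 had adjusted p-values of 0.0651 to 0.0896.

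The other lists held no gene past the threshold after exercise at ZT0, where 1.08% of all genes passed. These were 19 tested muscle ubiquitin ligases (median log2 fold change 0.26), 31 autophagosome formation genes (0.04), 14 autophagy receptors and mitophagy genes (0.20) and 30 lysosome and fusion genes (0.11). Foxo3, the FoxO factor best known for driving atrogenes, had a log2 fold change of 0.66 ± 0.18 (adjusted p = 0.0907). At ZT12 none of the 126 passed after exercise, where 0.294% of all genes did. Irs2 had 1.42 ± 0.37 (adjusted p = 0.113) and Depp1 1.34 ± 0.33 (adjusted p = 0.0848) there. The count at ZT12 was 2 by DESeq2, where 226 of all 15294 genes passed. It was 2 on flow cell 1 alone (0.133% of all genes) and 2 without ZT12-SED replicate 6 (0.499%). It was 1 each without ZT12-EX replicate 4 (0.446%) or the 3 libraries that stood apart (0.3%). None of the 126 passed for the difference between both times, and none of all 15294 genes did. Klf15 had -1.08 ± 0.29 (adjusted p = 0.571) for that difference.

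In sedentary mice, 5 of the 126 were higher at ZT12 than at ZT0 and 1 was lower (4.76%, against 5.20% of all genes). The 4 upstream regulators among those that were higher are described here. Foxo3 had its lowest, median and highest levels at 48.3, 62.4 and 81.5 CPM in ZT12-SED hearts and 23.5, 30.2 and 42.5 CPM in ZT0-SED hearts, with no overlap (1.05 ± 0.18, adjusted p = 0.00112). Pik3r1, a regulatory subunit of phosphoinositide 3-kinase, was higher by 1.50 ± 0.25 (adjusted p = 0.000833) and Sesn1, a sestrin that restrains mTORC1, by 0.88 ± 0.16 (adjusted p = 0.00223). On flow cells 1 and 2 the difference was 1.03 and 1.06 for Foxo3, 1.89 and 1.20 for Pik3r1, and 0.93 and 0.82 for Sesn1. Klf15 was higher by 0.97 ± 0.21 (adjusted p = 0.00761), with 0.50 within flow cell 1 and 1.36 within flow cell 2. It did not pass with library totals (adjusted p = 0.0958), without a flow cell term (0.183), with only the compared groups fitted (0.0623), without both sets of libraries (0.0509) or on either flow cell alone (0.142 and 0.0568). With library totals Foxo3 had an adjusted p of 0.0552 and Sesn1 one of 0.0873, in a fit where 1.53% of all genes passed, and on flow cell 2 alone Foxo3, Sesn1 and Pik3r1 did not pass (adjusted p of 0.194 to 0.629).

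The gene that was lower was Stub1, a chaperone-linked ubiquitin ligase, at -1.09 ± 0.32 (adjusted p = 0.0484). Its difference was -2.04 within flow cell 1 and -0.18 within flow cell 2, and with the GC correction it was -0.34 (adjusted p = 0.171). The call was lost when any 1 of ZT12-SED replicates 1 to 3, ZT12-EX replicates 2, 3 and 5, ZT0-SED replicates 1 to 4 or ZT0-EX replicates 1 to 6 was left out (-1.11 to -0.84, adjusted p = 0.0505 to 0.150). The count of 6 genes became 26 without the libraries rich in skeletal muscle transcripts, 29 without ZT12-EX replicate 4 and 23 without ZT0-SED replicate 6, in fits where 20.1%, 21.2% and 18.2% of all genes passed. None of the 31 autophagosome formation genes and none of the 30 lysosome genes passed here in the fit to all libraries. In that fit 5.20% of all genes passed. In exercised mice none of the 126 passed, where 1.65% of all genes did. The count was 1 by DESeq2 (3.5% of all genes), 1 with the GC correction (2.5%) and 4 without the 3 libraries that stood apart (6.49%). It was 1 each without ZT12-EX replicate 4 (2.94%) or 6 (2.52%).

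**Figure D5:**
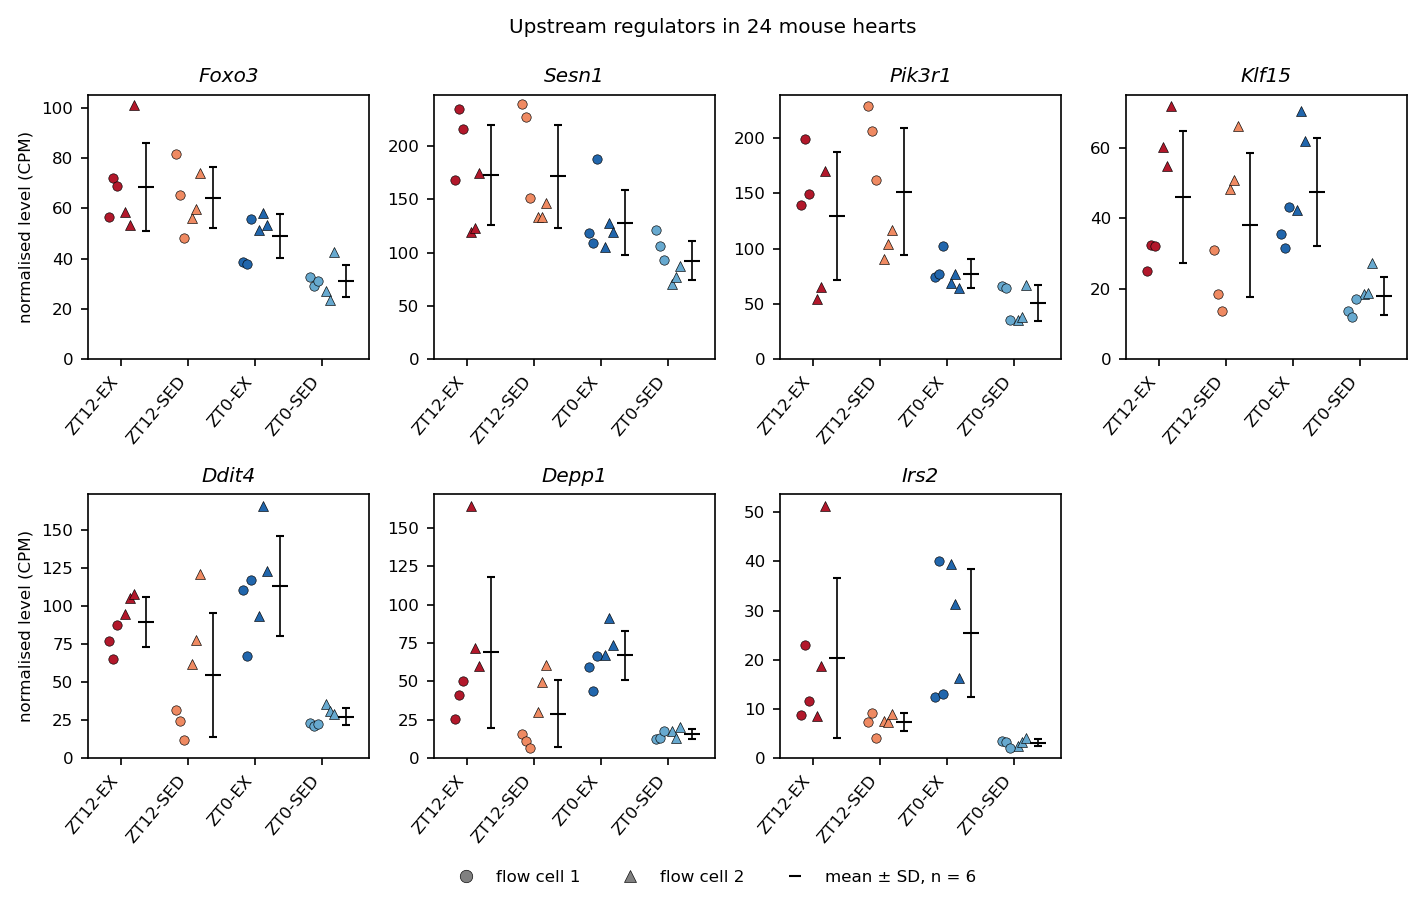
Normalised level in CPM (vertical axes, starting at 0) of 7 upstream regulators in the 4 groups, with flow cell 1 as circles, flow cell 2 as triangles and mean ± SD of 6 mice as bars. Irs2, Ddit4, Depp1 and Klf15 lie higher in every ZT0-EX heart than in any ZT0-SED heart, and Foxo3 lies at 48.3 to 81.5 CPM in ZT12-SED against 23.5 to 42.5 CPM in ZT0-SED hearts.

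The 10 genes did not follow a single pattern. Likeness was measured as the root mean square difference of log2 CPM over the 24 libraries, each gene centred within each flow cell. The closest pair was Sqstm1 and Ctsl at 0.30, and the farthest was Fbxo31 and Bnip3 at 1.02. The measure is not scaled by spread, so genes that vary little lie close whether or not they move together. Sqstm1 and Ctsl had spreads of only 0.25 and 0.15. Fbxo32 varied most, with a spread of 0.69, and Ctsl least, with 0.15. Among 8613 other genes, those nearest to Fbxo32 were Pde7a, a cyclic AMP phosphodiesterase (0.26), A330023F24Rik (0.30) and Ppargc1a, a coactivator of mitochondrial genes (0.31), beside a median of 0.76 over those genes. Nearest to Trim63 were Clpb (0.20), Ldhd (0.22) and Letm1 (0.22). Fbxo30 had Tmf1 nearest (0.16), Fbxo31 had Bag6 (0.17), Bnip3 had Tm9sf2 (0.14) and Ulk1 had Slc20a2 (0.16). Since all points share libraries, depth and base composition, these values describe the data and were not tested.

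Some of these genes overlap others in the annotation, and whether counting used strand is not stated in the labels. The largest neighbour by level was Zcchc14, at 21.2 CPM over 58 shared antisense bases with Map1lc3b (188 CPM). Mrnip beside Sqstm1 and 1700101I11Rik beside Gabarapl1 had 1.74 and 1.52 CPM, and the partners of Fbxo32, Bnip3 and Ctsl were at or under 0.065 CPM. Reads within the shared bases cannot be assigned to either strand.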

How the data were processed

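Heart RNA of 24 mice was prepared with Trizol and poly-A-selecting TruSeq libraries, per the labels' protocols. The deposited files hold whole-number counts of reads per Ensembl gene, not normalised. Trimmomatic 0.39, HISAT2 2.2.1, Subread featureCounts 2.0.1 and the GRCm39 build are named in the submitters' processing notes. Neither the labels nor these notes state the annotation release, the strand setting or the handling of multimapping reads. Symbols, exon lengths, GC content and overlaps came from GENCODE M21, and 257 of 52350 identifiers (0.0013% of counts) had no symbol. Promoter sequences came from RefSeq and were read for Trim63, Bnip3 and Ctsl on GRCm38.p6.

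Genes were filtered with filterByExpr, scaled by the trimmed mean of M values and fitted with edgeR 4.0.16 (R 4.3.3), using robust quasi-likelihood F tests on group and flow cell with all 24 libraries and 19 residual degrees of freedom. The threshold was a Benjamini-Hochberg adjusted p of 0.05 over 15294 genes, and SE is the fold change divided by the root of F. CPM use the scaled library sizes, and log2 CPM carry a prior count of 2. Alternatives were 16 settings and 24 single libraries left out. They included DESeq2 1.42.0, limma 3.58.1 with voom weights, scaling by library totals, stricter and no filters (1 CPM in 6 libraries), no flow cell term, a replicate block, GC offsets (a spline of 5 degrees of freedom per library), each flow cell alone, and leaving out the 6 libraries with a muscle marker mean above 3 on the log2 scale, the 3 that stood apart, or both sets. Leaving out both sets was chosen after seeing the data. The fit was tested on simulated counts.

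The members and gene lists were chosen with earlier results of these data known. Named were all 10 members, up to 4 genes per list and comparison with the smallest p past the threshold, and the 3 genes nearest to each member; Foxo3, Irs2, Depp1 and Klf15 are also given where they did not pass. Within groups, 60 pairs of libraries differed by more than sampling noise (chi-square of at least 13.3 per degree of freedom). This cannot show that they come from different mice, and each counts as 1 replicate by the labels. One gene that this rule names is not reported here.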

Additional observations from a re-analysis of the deposited data

Results flagged for a closer look

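Ulk1 in replicate 6 of ZT0-SED stood far from the others of its group, at 52.9 CPM against 23.0 to 29.6 CPM in the other 5 hearts. The gap to its nearest neighbour was 0.778 of the range of the group, above Dixon's critical value for 6 samples. Of 40 groups tested this was the 1 that exceeded it, and chance does so in about 5% of groups. The same library had a mean log2 level of 5.64 for fast skeletal muscle markers, and the part of these transcripts in the Ulk1 value was not tested.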

How the results depend on the processing

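For exercise at ZT0, 1 gene passed the threshold in the main fit, beside 1.08% of all genes. The count became 0 with library totals (0.556% of all genes), without a flow cell term (0.333%), and on flow cell 1 (0.259%) or flow cell 2 alone (0.0857%). It was also 0 without the libraries rich in skeletal muscle transcripts (0.327%) or those and the 3 that stood apart (0.869%). For time of day in sedentary mice, 1 gene passed in the main fit, beside 5.20% of all genes. The count became 0 with library totals (1.53%), without a flow cell term (0.843%) and on flow cell 2 alone (0.231%). It was also 0 with only the compared groups fitted (1.69%) and without the 3 libraries that stood apart (2.79%). It became 2 with DESeq2, where 19.1% of all genes passed, and 6 on flow cell 1 alone, where 43.5% did. Leaving out 1 library gave 0 to 1 gene for exercise at ZT0, 0 to 2 for time of day in sedentary mice, and 0 throughout for the others. Of 1990 recomputed fold changes of the 10 genes, 25 lost a call, 10 gained one and 0 reversed after a call, and 154 of the 1900 uncalled in both fits changed sign. Library totals moved the median log2 fold change of all genes to -0.18 for time of day in sedentary mice (main -0.01), to 0.20 for exercise at ZT12 (main 0.06) and to 0.12 for the difference of effects (main 0.02). For time of day in sedentary mice, the 6 pathway genes became 1 with library totals (1.53% of all genes). They became 3 without a flow cell term (0.843%) and 27 with DESeq2 (19.1%). On flow cell 1 alone they became 62 (43.5%) and on flow cell 2 alone 0 (0.231%). For exercise at ZT0 the 4 became 1 on flow cell 2 alone (0.0857%). The cause of these changes was not tested.

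Replicate numbers were not taken to pair the samples, as no label ties a number to a cage, litter or day. Of 36 same-numbered pairs, 15 had deviations that correlated over 0.1 (range -0.45 to 0.78). As a hint of pairing in the data, 13 of 24 libraries correlated best with their own number, among other groups on the same flow cell. No chance level was computed, so these values cannot decide whether the numbers pair the samples. With a replicate block, the members called numbered 1 for exercise at ZT0, 0 at ZT12, 0 for the difference, 1 for time of day in sedentary mice and 0 in exercised mice, and Stub1 in sedentary mice did not pass (-1.06, adjusted p = 0.0585). The lowest count was 30, for Fbxo31 in ZT12-SED replicate 1 (5.75 CPM), a library in which Fbxo30 had 286 counts (54.9 CPM).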
